A study of Mus musculus with 12 samples.

Results

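H3K27ac signal was described at the narrow intervals of the deposited table, which are the intervals under 400 bp long that the authors annotated as intron or intergenic. There were 30891 of them among 126464 intervals (24.4%), with 18344 in introns and 12547 between genes. The rule uses length and annotation only. The length of an interval is set where reads pile up in these libraries, so the choice is not independent of signal strength. All libraries were made from 4T1, a metastatic line from a mouse mammary tumour, labelled as wild type and grown in DMEM with 10% FBS. Cells were treated for 48 h, with acetate at 5 mM and with etomoxir and SB204990 at 50 µM each. The 6 treatments were vehicle and acetate, then etomoxir without and with acetate, and then both inhibitors (etomoxir + SB204990) without and with acetate. Each treatment had 2 libraries, called set 1 and set 2 after a pair of name suffixes that recur across treatments and that the labels do not explain. The labels do not say that the 2 libraries came from separate cultures, so p-values measure the spread between these libraries, which may be technical. Human chromatin was added to every sample as a spike-in, and the values are reads multiplied by a spike-in factor per library (scaled values).

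H3K27ac is histone H3 acetylated at lysine 27, a mark of active promoters and enhancers that is written with acetyl groups taken from acetyl-CoA. Active enhancers usually carry it on several nucleosomes around an open stretch of DNA. Acetate can be turned into acetyl-CoA, etomoxir blocks the carnitine palmitoyltransferase step of fatty acid oxidation, and SB204990 inhibits ATP citrate lyase, which makes acetyl-CoA from citrate. Many short stretches of a mammalian genome are copies of repeats, and reads from one copy can be placed at another.

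The sequences below carry the findings that follow. They are given 5′ to 3′ from the GRCm38.p6 assembly (the mm10 build of the table), as the whole interval up to 300 bp and otherwise its central 300 bp. The first 5 are among the 10 narrow intervals with the highest signal, Cntnap5a and Gm28986 had lower values with acetate in the presence of both inhibitors, and Gm28619 was chosen after its values were seen, because it is a near copy of Gm28986. Each is called by the nearest gene in the table. Capitals mark the longest run found letter for letter at another place on the assembled chromosomes, and in Gm28986 and Gm28619 the longest run that these 2 intervals share.
Gm10801 (chr2:98662537-98662756, plus strand): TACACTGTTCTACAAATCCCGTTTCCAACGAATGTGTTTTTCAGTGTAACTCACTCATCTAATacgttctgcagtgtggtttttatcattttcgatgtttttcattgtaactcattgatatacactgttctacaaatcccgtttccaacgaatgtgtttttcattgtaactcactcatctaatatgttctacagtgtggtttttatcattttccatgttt
Zc3h7a (chr16:11143997-11144296, plus strand): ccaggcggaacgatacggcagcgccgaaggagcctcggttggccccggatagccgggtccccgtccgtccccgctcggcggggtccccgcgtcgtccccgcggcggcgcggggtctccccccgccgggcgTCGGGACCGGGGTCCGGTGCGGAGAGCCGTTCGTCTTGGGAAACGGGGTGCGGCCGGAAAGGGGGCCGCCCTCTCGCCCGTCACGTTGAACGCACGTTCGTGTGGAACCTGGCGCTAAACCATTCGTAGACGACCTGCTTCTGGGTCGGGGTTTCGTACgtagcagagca
Filip1l (chr16:57391347-57391646, plus strand): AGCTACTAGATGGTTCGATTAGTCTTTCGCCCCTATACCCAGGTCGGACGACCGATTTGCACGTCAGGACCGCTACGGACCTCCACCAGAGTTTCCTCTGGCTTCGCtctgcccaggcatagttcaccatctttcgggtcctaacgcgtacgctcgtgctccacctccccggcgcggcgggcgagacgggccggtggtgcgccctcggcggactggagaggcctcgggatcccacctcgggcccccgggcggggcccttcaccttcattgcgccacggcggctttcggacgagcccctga
Gm37350 (chr3:5860527-5860732, plus strand): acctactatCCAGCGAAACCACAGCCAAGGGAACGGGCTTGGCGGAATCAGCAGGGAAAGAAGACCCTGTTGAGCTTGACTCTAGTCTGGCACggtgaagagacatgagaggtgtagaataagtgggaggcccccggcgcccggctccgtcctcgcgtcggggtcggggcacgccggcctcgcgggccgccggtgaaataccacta
Gm49498 (chr15:61428728-61429027, plus strand): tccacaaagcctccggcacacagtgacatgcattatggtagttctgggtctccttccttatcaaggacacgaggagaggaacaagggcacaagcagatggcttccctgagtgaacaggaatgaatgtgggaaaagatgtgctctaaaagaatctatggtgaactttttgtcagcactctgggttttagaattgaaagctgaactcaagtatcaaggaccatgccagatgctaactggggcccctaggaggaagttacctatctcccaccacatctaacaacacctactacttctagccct
Cntnap5a (chr1:115803239-115803456, plus strand): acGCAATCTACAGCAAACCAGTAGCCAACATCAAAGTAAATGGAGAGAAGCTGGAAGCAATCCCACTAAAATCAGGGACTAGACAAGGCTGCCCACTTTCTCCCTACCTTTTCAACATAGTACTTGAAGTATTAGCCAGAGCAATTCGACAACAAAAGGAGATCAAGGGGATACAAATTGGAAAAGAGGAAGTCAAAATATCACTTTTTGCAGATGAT
Gm28986 (chrY:29071024-29071283, plus strand): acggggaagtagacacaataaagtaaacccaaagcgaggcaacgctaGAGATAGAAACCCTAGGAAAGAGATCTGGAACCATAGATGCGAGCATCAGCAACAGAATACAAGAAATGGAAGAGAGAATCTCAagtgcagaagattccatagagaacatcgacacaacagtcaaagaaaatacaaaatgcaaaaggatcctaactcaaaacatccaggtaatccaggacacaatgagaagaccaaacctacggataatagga
Gm28619 (chrY:40584410-40584623, minus strand): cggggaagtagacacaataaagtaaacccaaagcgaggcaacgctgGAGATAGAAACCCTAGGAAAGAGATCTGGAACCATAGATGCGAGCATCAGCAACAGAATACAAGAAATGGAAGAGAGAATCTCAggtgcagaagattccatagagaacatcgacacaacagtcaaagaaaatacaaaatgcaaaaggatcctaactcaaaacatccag
These intervals lie in an intron of Gm10801, an intron of Zc3h7a (overlapping Gm23935, annotated as a microRNA gene), an intron shared by Filip1l and Cmss1 on opposite strands, between genes near Gm37350, between genes near Gm49498, in an intron of Cntnap5a, and between genes on chromosome Y near Gm28986 and Gm28619. Apart from Gm23935, GENCODE vM21 placed no exon or UTR in any of the first 7. No other place on the assembled chromosomes matched the Gm49498 interval, and no run of capitals is marked in it. The run marked in Zc3h7a was 159 bases, in Cntnap5a 216 bases, and in the pair on chromosome Y 84 bases.

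The libraries held 7179165 to 16676442 reads in intervals, and 162418 to 231426 of them lay in narrow intervals. Set 2 of etomoxir + SB204990 differed from the rest, with the fewest reads and with 2.73% of its reads in narrow intervals (95% Wilson interval 2.71 to 2.74%). The other 11 libraries had 1.2% to 1.70% there. Intervals such as this one cover counting error only. The scaling factors ran from 0.398 to 1 and reached 1 in 1 library of each set, so values within each set are given beside pooled ones. As a check of the label of the line, 7 of 9 mammary epithelial markers had an interval across their transcription start, all except Krt18 and Krt7. Their summed scaled values were 7601 to 18211 per library. Of the leukocyte markers, 1 of 5 had one (Csf1r, 111.5 to 334), and of the endothelial markers 2 of 4 (Pecam1 and Cdh5, 399 to 1119). These sums cover different numbers of genes. By gene the means were 398.5 to 4048 for the mammary markers, 223.5 for Csf1r and 84.2 to 678.7 for the endothelial markers. The higher endothelial marker thus lay above the lowest mammary one.

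Narrow intervals were weak. The median mean scaled value over the 12 libraries was 4.42, with 5% of the intervals under 1.84 and 5% above 7.68. In recovered reads a typical narrow interval held 6 in a library, a count with an exact Poisson 95% interval of 2.20 to 13.1. A narrow interval without a read occurred in 1.28% to 3.41% of cases per library, a count that allows up to 3 reads, and 25513 intervals (82.6%) had a read in all 12 libraries. At the other end, 26 had none in any library. Only 310 of 30891 (1.00%) had a mean of at least 10, compared with 37.2% of intron and intergenic intervals of 400 to under 1000 bp and 98.3% of those of 1000 to under 20000 bp (wide intervals). Together the narrow intervals covered 8.37 Mb and held 1.57% of the mean signal of the table.

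Per kilobase the typical narrow interval was like a wide one, with a median mean scaled value of 16.8 per kb against 17.5. Summed over all of them, scaled signal per kb in narrow intervals was lowest in set 1 of etomoxir + SB204990 (7.91) and highest in set 1 of etomoxir + acetate (27.6). In wide intervals it was 1.53 to 2.12 times as high in 11 libraries, and 0.953 times as high in the set 2 library of etomoxir + SB204990, the only library in which the narrow intervals were denser. The order of the other libraries by this ratio did not follow the treatments, since vehicle had 2.12 in set 1 and 1.53 in set 2.

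**Figure D1:**
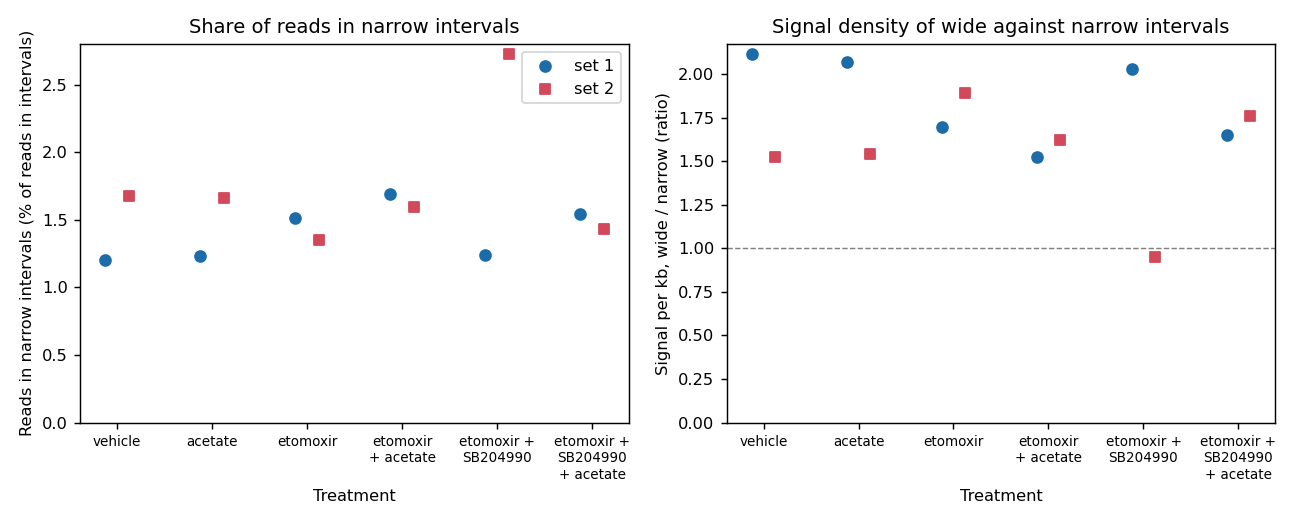
Share of reads in intervals that lay in narrow intervals (left, percent) and ratio of scaled signal per kb in wide to narrow intervals (right, with a dashed line at 1), one point per library by treatment, circles for set 1 and squares for set 2. The set 2 library of etomoxir + SB204990 lies at 2.73% and 0.953, apart from the other 11 libraries at 1.2% to 1.70% and 1.53 to 2.12.

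Signal rose with length inside the limit. The median mean scaled value was 3.24 under 200 bp, 4.2 at 200 to under 300 bp and 5.52 at 300 to under 400 bp, while the median per kb was 17.2, 17.3 and 16.1. Intervals just inside and just outside the limit had similar levels. The 79 intervals of 399 bp had a median of 6.41 and the 86 of 400 bp a median of 6.30. The 3 highest of 399 bp, near Fbxl2, Zfp706 and Gm32365, had means of 11.2, 10.3 and 9.61, and the 3 highest of 400 bp, near Zfp992, Klf10 and Ckb, had 12.6, 11.9 and 10.03. Intronic narrow intervals had a higher median than intergenic ones, 4.70 against 3.87.

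In position the narrow intervals were mostly distal. Their median distance to a transcription start was 26.3 kb, compared with 21.3 kb for wide intervals, and 31.7% lay over 50 kb away. An interval of at least 1 kb lay within 5 kb of 53.0% of the narrow intervals, and within 5 kb of 62.4% of the wide ones. The narrow intervals were spread over 12750 of the 22264 gene symbols of the table (57.3%), and 5956 of these had 1 narrow interval. The symbols with the most were 4930591A17Rik (35 narrow intervals, chromosome 2), Gm28590 (29, chromosome 1), Gm36667 (28, chromosome 5), Ajap1 (27, chromosome 4) and Cdh26 (27, chromosome 2). Of these, 4930591A17Rik, Gm28590 and Gm36667 are long noncoding RNAs, Ajap1 encodes an adherens junction associated protein and Cdh26 a cadherin. Their narrow intervals were weak, with medians of 2.67 to 3.13, below the 4.42 of all narrow intervals.

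The AP-1 motif was about as frequent in narrow intervals as in DNA near them, and less frequent than in wide intervals. AP-1 is a family of transcription factors (Fos and Jun proteins) whose motif, TGANTCA (its own reverse complement), is common in enhancers of epithelial cells. In 200 bp windows at the interval centres it occurred in 5.61% of 30862 narrow intervals, in 5.92% of windows 10 kb downstream of them, in 6.99% of intervals of 400 to under 1000 bp and in 10.3% of wide ones. The TEAD motif GGAATG, searched on both strands (its last 2 letters can be the first 2 of the AP-1 motif), occurred in 11.3% of narrow intervals, 10.7% of the windows downstream and 12% of wide intervals. Median GC content was 47.5% in narrow intervals, 44.0% in the windows downstream and 46.0% in wide intervals. Repeat-masked bases filled at least 50% of the window in 23.7% of narrow intervals, 23.5% of the windows downstream and 15.9% of wide intervals. Within the narrow intervals this share was 18.3% in the 7708 with the highest means and 35.7% in the 7715 with the lowest. These shares are descriptions, and a match is not a binding site.

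Most of the narrow intervals with a mean of at least 10 lay on 2 chromosomes, 171 of 310 (55.2%). Chromosome 15 held 4.40% of all narrow intervals but 118 of the 310 with a mean of at least 10 (38.1%), and chromosome 9 held 4.89% and 53 (17.1%). The 10 Mb stretch with the most of them was taken on each of these chromosomes, so the medians of narrow intervals inside it are a description. On chromosome 15, 71 of the 118 lay within 10 Mb from position 55151927 (mm10), a stretch that holds Myc, which encodes a transcription factor that drives growth, and Pvt1, a noncoding RNA gene beside it. The median mean scaled value of the 152 narrow intervals in this stretch was 9.46, compared with 4.73 for the other narrow intervals of the chromosome. In intervals of 400 to under 1000 bp, which did not enter the choice, the medians were 18.5 and 9.5. On chromosome 9, 24 of the 53 lay within 10 Mb from position 32619607, with medians of 7.33 inside and 4.69 outside, and for the longer intervals 14.2 and 9.14. Chromosome X had the lowest median of the chromosomes at 2.27, against 3.76 to 5.37 over the autosomes. DNA copy number was not measured here, and its part in these levels was not tested.

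**Figure D2:**
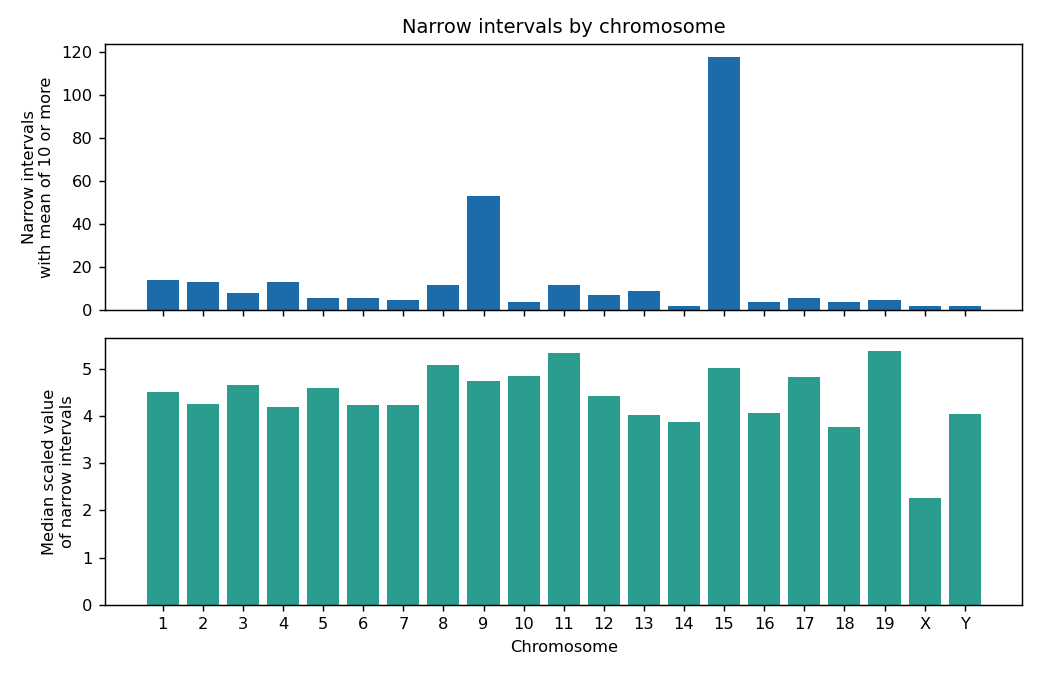
Number of narrow intervals with a mean scaled value of at least 10 (top) and median of the mean scaled value of all narrow intervals (bottom) on each chromosome. Chromosomes 15 and 9 hold 118 and 53 of the strong intervals, and chromosome X has the lowest median at 2.27.

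Of the 10 narrow intervals with the highest means, 1 lay in the stretch around Myc (Gm49498), and the others lay elsewhere. The Gm10801 interval had a mean of 2319, compared with 119 for the next, near Gm31087 on chromosome 18. The others were 3 intervals near AC149090.1 on an unplaced scaffold (means of 108.8, 93.3 and 73.1), Zc3h7a (96.5), Filip1l (93.4), Gm37350 (62.5), Gm11399 (50.5, in an intron of Sfi1) and Gm49498 (39.3). In Gm10801 the scaled values of set 1 and set 2 were 1606 and 2391 with vehicle, 1920 and 2727 with acetate, 1574 and 1630 with etomoxir, and 2977 and 2450 with etomoxir + acetate. They were 1219 and 4449 with etomoxir + SB204990, and 2182 and 2702 with etomoxir + SB204990 + acetate. The lowest and the highest library were thus the 2 libraries of the same treatment. The same libraries were the lowest and the highest in 7 of the 10, all except Gm37350, Gm11399 and Gm49498.

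The Zc3h7a, Filip1l and Gm37350 intervals varied alike and more widely than Gm10801. The Zc3h7a interval had 41.6 and 89.5 with vehicle, 64.0 and 140.4 with acetate, 37.7 and 39.5 with etomoxir, 141 and 81.6 with etomoxir + acetate, 33.9 and 268 with etomoxir + SB204990, and 93.8 and 126.6 with etomoxir + SB204990 + acetate. Filip1l ranged from 32.3 to 278 and Gm37350 from 20.04 to 171, each with its highest value in the set 2 library of etomoxir + SB204990. They were GC-rich, with 71.7%, 66.0% and 62.6% GC and 46, 33 and 18 CpG dinucleotides in the sequences shown, while a 200 bp window of a narrow interval had a median of 2. Each matched further places on the assembled chromosomes at 90% identity or more over at least 80% of its length. There were 3 places in all for Zc3h7a, 4 for Filip1l and 4 for Gm37350. Copies outside the assembled chromosomes were not counted. By the same count Gm10801 matched 5 places, itself included. Gm31087, Gm11399 and Gm49498 matched only themselves, and Gm49498, the 10th, had a narrower range, 18.3 to 66.

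**Figure D3:**
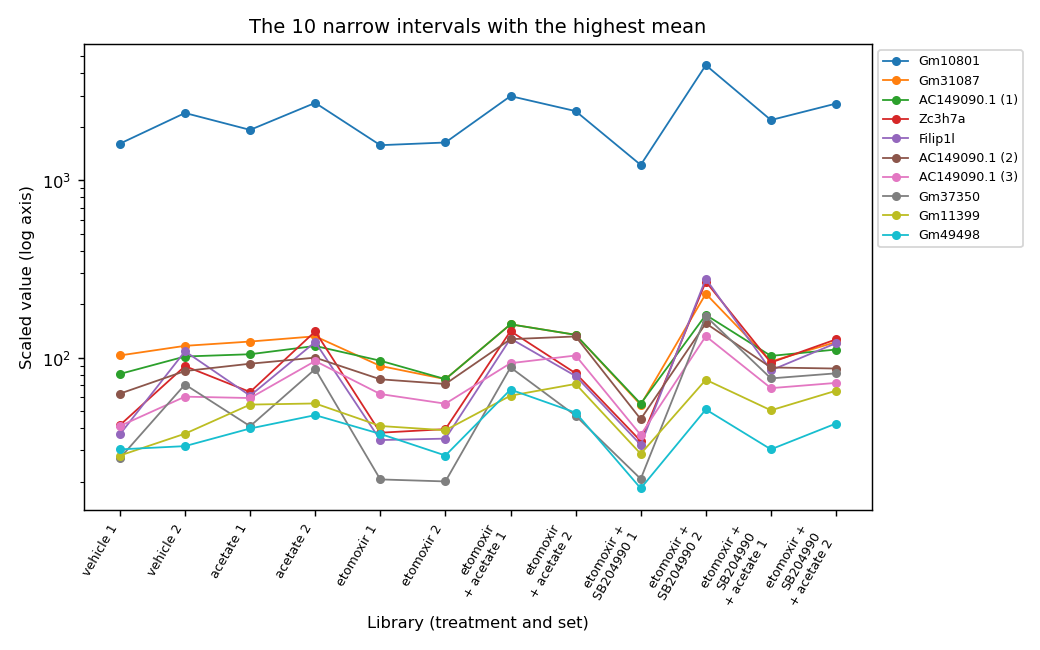
Scaled value (log axis) in each library of the 10 narrow intervals with the highest mean; lines join the libraries of an interval. Gm10801 lies between 1219 and 4449, and Zc3h7a, Filip1l and Gm37350 move together, from 20.04 to 41.6 in set 1 vehicle, both etomoxir libraries and the set 1 library of etomoxir + SB204990 up to 171 to 278 in the set 2 library of etomoxir + SB204990.

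Repeated sequence was more frequent among the strongest narrow intervals than among the rest. Of 305 with a mean of at least 10 on the assembled chromosomes, 221 (72.5%) matched 1 place in the genome, 28 (9.18%) matched 2 to 10, 20 (6.56%) 11 to 1000 and 36 (11.8%) over 1000. In every 100th of the weaker narrow intervals, 270 of 306 (88.2%) matched 1 place and 10 (3.27%) over 1000. The strong intervals with 1 place were mostly those of chromosomes 9 and 15, which held 163 of the 221, against 1 of the 36 with over 1000 places. Set 2 of etomoxir + SB204990 departed most where the sequence was repeated. Against vehicle of the same set, the summed scaled values of the strong intervals were higher by 0.41 (log2) with 1 place and by 1.25 with over 1000, and those of the weaker ones by 0.50 and 1.81. In set 1 the same log2 differences were -0.34 and -0.14, and -0.28 and -0.08.

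Acetate was compared first on the total of all narrow intervals. The scaled total rose from 81892 to 123975 between vehicle and acetate in set 1 and from 128684 to 166237 in set 2. In etomoxir it was 121276 without and 231426 with acetate in set 1, and 106082 and 205976 in set 2. In etomoxir + SB204990 it was 66224 without and 132639 with acetate in set 1, but 195682 without and 161687 with it in set 2. The group means were 105288 ± 33087 (SD, n = 2) with vehicle, 145106 ± 29883 with acetate, 113679 ± 10744 with etomoxir, 218701 ± 17996 with etomoxir + acetate, 130953 ± 91541 with etomoxir + SB204990 and 147163 ± 20540 with etomoxir + SB204990 + acetate. The total was thus higher with acetate in 5 of 6 pairs of the same set.

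The average difference was 0.60 on the log2 scale (1.51-fold), and it did not pass an exact two-sided permutation test in which acetate labels were exchanged within each background (p = 0.0648, 216 arrangements, smallest possible p = 0.00926). It was 0.86 without the set 2 library of etomoxir + SB204990 (exact permutation p = 0.0185) and 0.34 without the set 1 library of the same treatment (exact permutation p = 0.194). Within sets the log2 differences were 0.60 and 0.37 for acetate over vehicle, 0.93 and 0.96 over etomoxir, and 1.00 and -0.28 over etomoxir + SB204990. Without the spike-in factors, as a share of all reads in intervals, the average difference was -0.029 (exact permutation p = 0.935), and with these shares multiplied by the factor it was 0.39 (exact permutation p = 0.426).

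The narrow intervals did not differ detectably from the wide ones in their response. The log2 ratio of the narrow to the wide total, which does not depend on the factor of a library, changed by -0.03 with acetate on average (exact permutation p = 0.926). By pair this ratio changed by 0.03 and -0.01 over vehicle, by 0.15 and 0.22 over etomoxir, and by 0.30 and -0.89 over etomoxir + SB204990. The average was 0.15 without the set 2 library of etomoxir + SB204990 (exact permutation p = 0.185), and as a median over intervals it was -0.16 (exact permutation p = 0.0833). Etomoxir changed the ratio by 0.09 on average (p = 0.5) and etomoxir + SB204990 by 0.22 (p = 0.611), in exact permutation tests of 36 arrangements that cannot go below p = 0.0556. In set 1 and set 2 the etomoxir change was 0.32 and -0.31 without acetate and 0.44 and -0.07 with it, and the change with both inhibitors was 0.06 and 0.68 without acetate and 0.33 and -0.19 with it. The average change with both inhibitors was -0.055 without the set 2 library of that treatment.

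The acetate change was also split by length, and its course with length differed between pairs. Averaged over the 6 pairs, the log2 difference of the summed signal was 0.61 under 200 bp, 0.59 at 200 to under 300 bp, 0.60 at 300 to under 400 bp, 0.61 at 400 to under 1000 bp, 0.63 at 1000 to under 20000 bp and 0.64 above. In the pair of etomoxir + SB204990 in set 2 the difference ran from -0.37 under 200 bp to 0.84 at 20000 bp and over. The same pair in set 1 ran the other way, from 1.0 to 0.64, and both etomoxir pairs fell likewise, from 0.94 to 0.74 and from 1.08 to 0.68. Over the 5 pairs other than that of etomoxir + SB204990 in set 2, the average was 0.80 under 200 bp, 0.77 at 200 to under 300 and at 300 to under 400 bp, 0.76 at 400 to under 1000 bp, 0.63 at 1000 to under 20000 bp and 0.60 above.

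**Figure D4:**
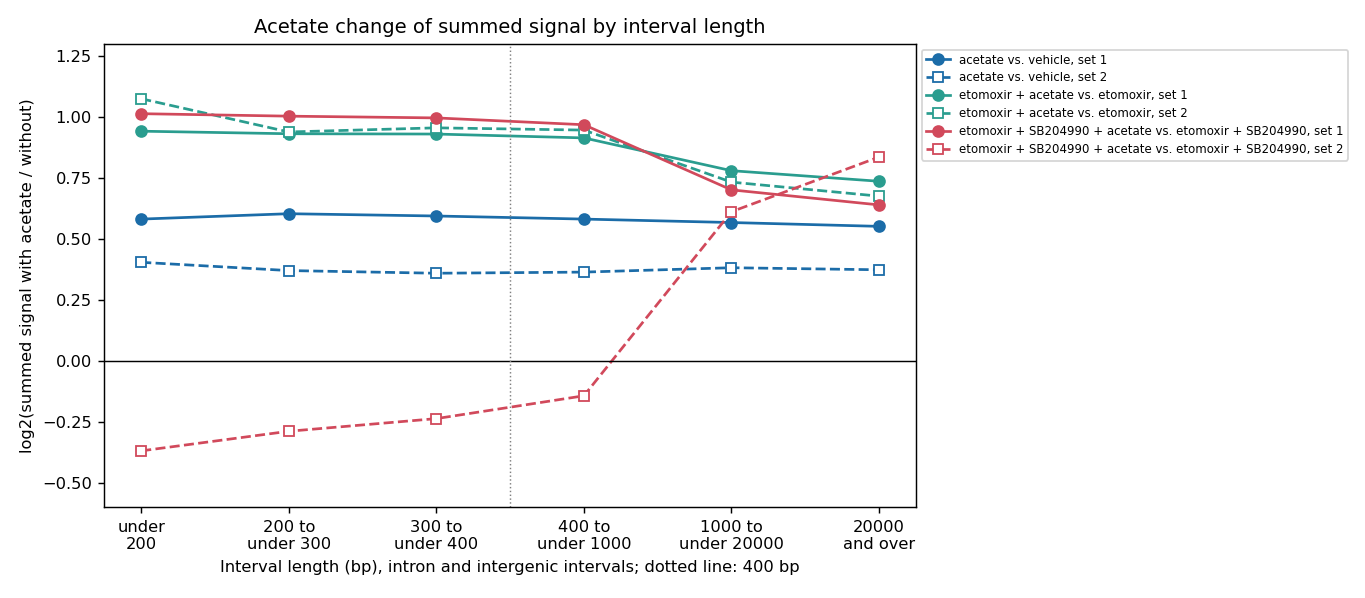
Log2 ratio of summed scaled signal with against without acetate in intron and intergenic intervals by length (bp), one line per pair of the same set, with a dotted line at 400 bp. In 5 pairs the lines lie between 0.36 and 1.08 at every length, and the set 2 pair of etomoxir + SB204990 rises from -0.37 to 0.84.

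At single narrow intervals a rise with acetate in every pair was less frequent than in the table as a whole. Higher values with acetate in each of the 6 pairs were found at 4419 narrow intervals (14.3%), against 41.2% of all intervals and 72.3% of wide ones. Over the 5 pairs other than that of etomoxir + SB204990 in set 2 these shares were 29.0%, 56.8% and 84.8%. Lower values in each pair were found at 20 narrow intervals (0.0647%), against 0.019% of all intervals, and none of these 20 had a mean of 10 or more. Higher values with etomoxir in all 4 pairs were found at 4634 (15%, against 25.9%) and lower ones at 603 (1.95%, against 0.94%). With etomoxir + SB204990 these were 2485 (8.04%, against 5.98%) and 1260 (4.08%, against 6.34%). Narrow intervals held a median of 5 to 7 reads per library, and the part of counting error in these shares was not tested.

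Of the narrow intervals, the 310 with a mean of at least 10 were tested, in 1 limma fit with all 63903 such intervals, on log2(scaled value + 1). The mean includes the treatment in which an interval was high, and 122 of the 310 had a mean under 10 over the libraries other than those of etomoxir + acetate. Called below means a Benjamini-Hochberg adjusted p under 0.05 over all tested intervals in that comparison. With acetate against vehicle none was called, where 0.0955% of all tested intervals were called higher and 0% lower, and 13 had an unadjusted p under 0.05. In edgeR none was called either. Without the set 1 or the set 2 library of etomoxir + SB204990, limma called some narrow intervals and some of all. The median log2 difference of narrow intervals was 0.46 in both fits, against 0.48 of all.

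With etomoxir + acetate against etomoxir 62 were called higher and none lower (20% of the 310, against 56.4% of all), and the median log2 difference was 0.81, close to 0.83 over all tested intervals. Of the 62, 23 had a mean under 10 without the libraries of etomoxir + acetate, and 39 of the other 188 tested intervals (20.7%) were called. In limma fits scaled by median of ratios, and with shares of reads times the factor, 0 narrow intervals and 0 of all tested intervals were called in this comparison, and 6 of 246 and 15 of 411 narrow intervals had an unadjusted p under 0.05. Leaving out 1 library moved the number of calls. The fewest came without the set 1 library of etomoxir + acetate (median 0.73, against 0.77 of all). The most came without the set 1 library of etomoxir + SB204990 (median 0.86, against 0.83 of all). With etomoxir + SB204990 + acetate against etomoxir + SB204990, 3 were called higher (0.968%, against 27.4% of all) and 2 lower (0.645%, against 0.00313% of all), with medians of 0.30 for the 310 and 0.62 for all. Without the set 2 library of etomoxir + SB204990 the median of the narrow intervals was 0.93, against 0.95 of all. Without that of set 1 it was -0.23, against 0.23 of all. Under both other scalings 0 were called higher and 1 lower. Averaged over the 3 backgrounds, 114 were called higher (36.8%, against 77.2% of all) and 1 lower (0.323%, against 0.00156% of all), with medians of 0.52 and 0.64. Of the 114, 52 had a mean under 10 without the libraries of etomoxir + acetate. With these other scalings limma again called 0 narrow intervals and 0 of all on the average (11 and 2 narrow intervals with an unadjusted p under 0.05). Every call of a higher value at a narrow interval named in the next paragraphs was thus lost with both scalings. With 1 library left out, the fewest calls on the average came without the set 2 library of etomoxir + SB204990 + acetate (median 0.48, against 0.59 of all). The most came without the set 2 library of etomoxir + SB204990 (median 0.75, against 0.77 of all). Etomoxir against vehicle and etomoxir + SB204990 against vehicle gave no call among the 310, where 0.0563% and 0.0313% of all were called higher and 0.00626% and 0.0219% lower; 9 and 3 of the 310 had an unadjusted p under 0.05, and edgeR called 0 and 1. In the second comparison narrow intervals were called only higher without the set 1 library of etomoxir + SB204990 (median 0.68, against 0.27 of all). They were called only lower without that of set 2 (median -0.51, against -0.48 of all).

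The called narrow intervals with the largest differences when acetate was added to etomoxir lay near Rprm, S100a7a, Gm27030, Fzd6 and Gm40988. Rprm encodes a p53-induced protein of cell cycle arrest, S100a7a a calcium-binding protein of the S100 family and Fzd6 a Wnt receptor of the frizzled family. In the Rprm interval (50.5 kb from its start), the scaled values were 6.29 and 4.58 with etomoxir and 25 and 24.0 with etomoxir + acetate, a log2 difference of 2.0 ± 0.53 (SE, limma adjusted p = 0.00145). They were 4.38 and 34 with etomoxir + SB204990, so the 2 libraries of that treatment lay on both sides of the other groups. In the S100a7a interval, which lies in its intron, the values were 6.86 and 4.01 with etomoxir and 23 and 24.0 with etomoxir + acetate, a log2 difference of 1.97 ± 0.57. Its mean of 10.08 over the 12 libraries was 7.39 without those of etomoxir + acetate, so it passed the filter through the treatment in which it was high, and its values are a description. In the Rprm interval the 2 groups did not overlap, and the call was lost without the set 2 library of etomoxir (1.81, adjusted p = 0.0563). Gm27030 and Gm40988 rose by 1.81 and 1.72 (limma adjusted p of 0.0048 and 0.00757). Fzd6 had a difference of 1.73, which is likewise a description, since its mean was 10.4 over all libraries and 9.0 without those of etomoxir + acetate. Of the fits that left out 1 library, the call was kept in 10 of 12 at Gm27030 and in 9 of 12 at Gm40988, where the difference was 0.95 (limma adjusted p = 0.256) without the set 2 library of etomoxir. These were counts of 7 to 25 reads, except that Gm40988 had 3 reads in etomoxir set 2.

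Averaged over backgrounds, Rnf223, Gm27030, Gm26878, 2900057B20Rik and Npr3 had the largest differences, 1.05, 1.04, 1.01, 1.00 and 0.99. Npr3 encodes the clearance receptor of natriuretic peptides, and its interval lies in its own intron. The scaled values at Npr3 were 4.21 and 3.96 with vehicle and 13.3 and 12.1 with acetate, 5.71 and 10.9 with etomoxir and 23 and 17.3 with etomoxir + acetate. They were 4.78 and 12 with etomoxir + SB204990 and 9.06 and 10.4 with acetate added, so values were higher with acetate in 5 of 6 pairs and not in the set 2 pair with both inhibitors. At Rnf223 they were higher in 6 of 6 pairs, from 7.01 and 11.1 to 12.1 and 17.2 over vehicle, from 5.14 and 6.30 to 13 and 23.0 over etomoxir, and from 4.78 and 7 to 11 and 15.6 over both inhibitors. Without the libraries of etomoxir + acetate the means of Npr3, 2900057B20Rik and Rnf223 were 8.63, 9.66 and 9.72, so these 3 passed the filter through that treatment and their values are a description. Gm26878 and Gm27030, whose means stayed over 10, were called in all 12 fits that left out 1 library, and both calls were lost by median of ratios (0.42 and 0.46) and with shares of reads times the factor (0.83 and 0.85).

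With both inhibitors, Gm26511 (in an intron of Smarca4, which encodes a chromatin remodelling enzyme) and St3gal4 (in an intron of Kirrel3) rose by 1.42 and 1.22. The limma adjusted p at St3gal4 was 0.0496. The value at Gm26511 is a description. Its mean was 10.8 over the 12 libraries and 9.29 without those of etomoxir + acetate, its highest treatment, through which it passed the filter. St3gal4 encodes a sialyltransferase and Kirrel3 a cell adhesion protein. The St3gal4 interval had scaled values of 5.58 and 15 with both inhibitors and 20.05 and 26.02 with acetate added. The third called higher, 2900057B20Rik, had a difference of 1.51, which is a description, since its mean was 9.96 without the libraries of etomoxir + SB204990 + acetate and it passed the filter through this treatment. The call at Gm26511 was kept in 3 of 11 fits that left out 1 library and that at St3gal4 in 1 of 12. The values at Gm26511 and St3gal4 were 1.22 and 0.58 without the set 1 library of etomoxir + SB204990.

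The 2 narrow intervals called lower with acetate in the presence of both inhibitors were repeats. Cntnap5a, named for a gene of a neurexin family protein, matched 23773 places and Gm28986, on chromosome Y, 13804. In the Cntnap5a interval the recovered reads were 26 and 23 with vehicle, 36 and 35 with acetate, 15 and 29 with etomoxir, 33 and 24 with etomoxir + acetate, 31 and 60 with etomoxir + SB204990, and 9 and 11 with etomoxir + SB204990 + acetate. The last treatment had the fewest reads, and the log2 difference of scaled values from etomoxir + SB204990 was -1.75 ± 0.48 (SE, limma adjusted p = 0.00321). Without the set 2 library of etomoxir + SB204990, which had 60 reads, it was -0.65 (limma adjusted p = 0.189), and the call was also lost, with differences of -1.44 and -2.06, without the set 1 and the set 2 library of etomoxir + SB204990 + acetate (adjusted p of 0.102 and 0.0755). With all libraries, this call was lost by median of ratios (-2.28, limma adjusted p = 0.111) and with shares of reads times the factor (-2.16). It was also lost in limma without an intensity trend (adjusted p = 0.109). In the other 2 backgrounds the differences were 0.74, which did not pass the test, and 1.14 over etomoxir (limma adjusted p = 0.0358). The call over etomoxir was kept in 6 of 12 fits that left out 1 library, and the difference was 0.70 (limma adjusted p = 0.303) without the set 1 library of etomoxir.

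The Gm28986 interval had no read in either library of etomoxir + SB204990 + acetate and 15 to 31 reads in each of the other 10. By treatment its reads were 20 and 16 with vehicle, 19 and 17 with acetate, 20 and 18 with etomoxir, 31 and 25 with etomoxir + acetate, and 15 and 31 with etomoxir + SB204990. Against a floor of 3 reads per library, its mean scaled value was at least 8.14-fold higher in etomoxir + SB204990 than with acetate added, and within sets at least 3.08-fold in set 1 and 11.9-fold in set 2. The fitted log2 difference of -3.90 (limma adjusted p = 4.12e-07) depends on the pseudocount and is no bound. The call was kept in all 12 fits that left out 1 library and in edgeR, and was lost in limma without an intensity trend (adjusted p = 0.109). It was also the 1 narrow interval called lower on the average over backgrounds (-0.81, limma adjusted p = 0.0215), a call kept in 6 of the 12 fits. A second interval of chromosome Y, near Gm28619, had the reverse pattern of reads, with 22 and 15 in etomoxir + SB204990 + acetate and 0 in the other 10 libraries. Over an alignment of 260 bases to the place of Gm28619, Gm28986 had 258 identical bases on the opposite strand. Summed over the 2 intervals, the reads were 22 and 15 in etomoxir + SB204990 + acetate, within the range of 15 to 31 in the other libraries.

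A search of all 126464 intervals for such cases was made after these values were seen. It took intervals in which both libraries of a treatment had reads below the lowest of the other libraries by a factor of over 3 (at least 6 reads in each of these), or over 3 times as many (at least 10 reads in both). No interval met either condition for 5 of the treatments. For etomoxir + SB204990 + acetate, 3 intervals were below and 2 above, and 4 of the 5 were narrow. Besides the 2 on chromosome Y, these were Gm48155 on chromosome 13, with 0 reads in both libraries of this treatment and 10 to 26 in the others, and Gm3411 on chromosome 14, with 13 and 18 reads and 0 to 4 in the others. They matched 19726 and 1826 places, and Gm28619 matched 17248. A place overlapping the Gm3411 interval aligned with Gm28986 (254 of 258 bases identical) and with Gm28619 (211 of 213). The reads of Gm3411 are not in the sum given above. How reads with several equal placements were handled is not given in the sources used here, and its part in these values was not tested.

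**Figure D5:**
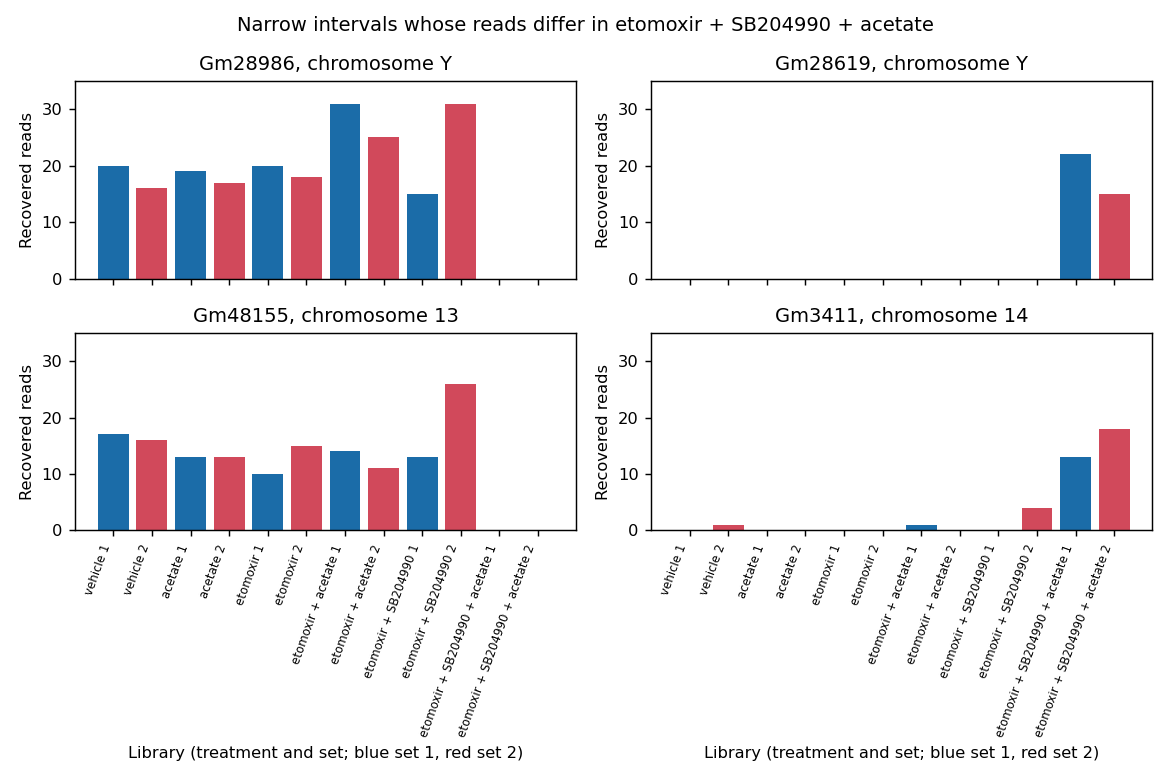
Recovered reads in each library at the narrow intervals of Gm28986, Gm28619, Gm48155 and Gm3411, blue bars for set 1 and red bars for set 2. In the last 2 libraries, those of etomoxir + SB204990 + acetate, Gm28986 and Gm48155 have 0 reads while Gm28619 and Gm3411 have 22 and 15, and 13 and 18.

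Narrow intervals near genes of metabolism, chromatin and cell identity were counted in lists, to be read against the 57.3% of all gene symbols that had one. Of 28 fatty acid oxidation and PPAR target genes, 9 had a narrow interval and these had 25 in all, with none tested. Of 20 genes of acetyl-CoA supply and fatty acid synthesis, 12 had 24 narrow intervals and 1 was tested. Of 44 epithelial-to-mesenchymal transition genes, 25 had 67. Of 11 AP-1 genes, 6 had 20, and of 24 writers, readers and erasers of histone acetylation, 13 had 40, with none tested in these lists. Mammary epithelial markers had 11 (6 of 15 genes), and the leukocyte and endothelial markers 1 each. The medians of the mean scaled value lay between 4.39 and 4.84 in the first 5 lists, near the 4.42 of all narrow intervals, and at 6.10 for the mammary epithelial markers.

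The tested one was an intergenic interval 44.8 kb from the start of Slc16a1, which encodes monocarboxylate transporter 1. Its scaled values were 14.02 and 8.72 with vehicle, 15.7 and 16.4 with acetate, 10.9 and 10.9 with etomoxir, 22 and 14.4 with etomoxir + acetate, 8.76 and 3 with etomoxir + SB204990, and 10.3 and 19.1 with etomoxir + SB204990 + acetate. All 6 pairs rose, and the average log2 difference was 0.81 ± 0.31 (SE, limma adjusted p = 0.0138). The call was lost without the set 1 library of etomoxir + acetate (0.71, adjusted p = 0.0601) and without the set 2 library of etomoxir + SB204990 + acetate (0.67, adjusted p = 0.0788). It was called in no other comparison. Summed over each list, the narrow intervals had higher scaled values with acetate in 6 of 6 pairs for the genes of acetyl-CoA supply, mesenchymal transition, AP-1 and histone acetylation, and in 5 of 6 for fatty acid oxidation and mammary epithelial markers, compared with 5 of 6 for all narrow intervals together. The single narrow intervals of the endothelial and leukocyte markers were higher in 6 of 6 and 5 of 6 pairs. The averages of the log2 differences were 0.55 to 0.74 in these 8 lists, near the 0.60 of all narrow intervals. The narrow intervals with the highest means in the lists were near Acadl (6.76), Angptl4 (6.59) and Pdk4 (6.45) for fatty acid oxidation, near Itgb3 (9.65) and Fn1 (8.5 and 7.76) for mesenchymal transition, near Fosl2 (9.11, 8.79 and 7.30) for AP-1, near Kat6a (7.89 and 7.08) and Hdac2 (7.86) for histone acetylation, and near Grhl2 (9.28 and 6.86) and Epcam (6.68) for epithelial identity. At such levels a value of 1 library rests on a handful of reads, and no test was made.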

How the data were processed

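H3K27ac was profiled by ChIP-seq in 12 libraries of 4T1 cells, 2 for each of 6 treatments, each with human chromatin added as a spike-in. The deposited table holds 1 scaled signal per interval and library. The authors processed the reads with the nf-core/chipseq workflow on a merged human and mouse genome (GRCh38 and mm10) and multiplied the reads of each library by a spike-in factor divided by the highest factor. How many libraries were used to call the intervals, and how reads with several placements were handled, are not given in the sources used here. Dividing the signal by its smallest step gave whole reads for 100% of values (tolerance 0.01). Input libraries were not used here.

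Totals and ratios were compared with exact two-sided permutation tests within backgrounds. Single intervals with a mean scaled value of at least 10 over the 12 libraries were fitted with limma (3.58.1 in R 4.3.3), after a log2 transform of the scaled value plus a pseudocount of 1, with all 6 treatments in the fit and Benjamini-Hochberg adjustment at 0.05 over 63903 intervals. On this scale the change of low values is understated. edgeR (4.0.16) quasi-likelihood tests on the recovered reads were an alternative, and both tests were checked on simulated data. The text names the 10 highest means, up to 5 called intervals with the largest change in each comparison and the same direction in both sets, up to 3 intervals per gene list, the symbols with the most narrow intervals and the intervals at the length limit. Narrow intervals and gene lists were chosen with earlier results of these data known. Sequences came from GRCm38.p6 and gene models from GENCODE vM21. Copies were counted with blastn 2.17.0 at 90% identity over 80% of the interval. The 29 narrow intervals on scaffolds have no sequence here. Leaving out 1 library, other scalings, filters, pseudocounts and length limits were tried, and leaving out the 10 highest intervals, chromosomes 9 and 15, or the pair of etomoxir + SB204990 in set 2, and taking the filter mean without 1 treatment, were added after seeing the data.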

Additional observations from a re-analysis of the deposited data

Results flagged for a closer look

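At 1 narrow interval the acetate change of the scaled value differed between backgrounds by a test of the difference itself. In the Gm28986 interval on chromosome Y, the acetate change with both inhibitors minus that without inhibitors was -4.13 on the log2(scaled value + 1) scale (limma interaction term, adjusted p = 0.017), from 0 reads in both libraries of etomoxir + SB204990 + acetate, so the value depends on the pseudocount and is no bound. Its near copy near Gm28619 had 22 and 15 reads in these libraries and 0 in the other 10, and summed over the 2 intervals the reads of these libraries lay within the range of 15 to 31 in the others. This sum leaves out Gm3411, which overlaps a further near copy and had 13 and 18 reads in these libraries. The Gm28986 interval was the 1 call among 63903 intervals tested, and the matching test for etomoxir alone called none of these intervals (13 of the 310 narrow intervals had an unadjusted p under 0.05). Gm28986 matched 13804 places in the genome, and the part of read placement in this value was not tested.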

How the results depend on the processing

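The acetate difference of the narrow total, 0.60 (log2), turned to -0.029 when libraries were scaled by their total and to -0.047 by median of ratios, which both remove an overall shift by construction, and was 0.39 with shares of reads times the factor. Leaving out 1 library gave 0.34 (without the set 1 library of etomoxir + SB204990, exact permutation p = 0.194) to 0.86, and it passed the test without the set 2 library of vehicle (0.71, exact permutation p = 0.0463) and without the set 2 library of etomoxir + SB204990 (0.86, exact permutation p = 0.0185). The narrow-to-wide ratio changed with acetate by -0.16 among narrow intervals with a mean of at least 10, by -0.16 as a median over intervals (exact permutation p = 0.0833), by 0.0056 in intronic intervals only and by -0.21 to 0.15 without 1 library (0.046 without the set 2 library of vehicle, 0.039 without the set 1 library of acetate, 0.15 without the set 2 library of etomoxir + SB204990). With etomoxir it changed by -0.10 among narrow intervals with a mean of at least 10, by -0.10 as a median over intervals and by -0.023 to 0.21 without 1 library (-0.023 without the set 1 library of vehicle and -0.012 without that of acetate). With both inhibitors it changed by -0.055 to 0.49 (the lowest without the set 2 library of etomoxir + SB204990). None of these ratios passed its test.

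Counts of called narrow intervals moved with the filter, with the scaling and with leaving out 1 library. With a mean of at least 5, 11430 narrow intervals were tested among 99570, and with no filter 30891 among 126464. By median of ratios 246 were tested among 61399, and with shares of reads times the factor 411 among 66511. In this order the counts for acetate over etomoxir were 1092, 1022, 0 and 0, against 35964, 29271, 0 and 0 of all. For acetate over both inhibitors they were 62, 58, 1 and 1, against 14329, 11131, 1 and 1 of all. For the average they were 2327, 2790, 0 and 0, against 55057, 51506, 0 and 0 of all. With the mean taken without the libraries of etomoxir + acetate, a choice made after seeing the data, 39 calls over etomoxir and 63 on the average were left. Acetate over both inhibitors gave 3 calls with a pseudocount of 4 (17377 of all) and 0 without an intensity trend (0 of all). edgeR called 1 for both inhibitors against vehicle (51 of all). Without 1 library the counts were 0 to 9 for acetate over vehicle, 5 to 162 over etomoxir, 1 to 91 over both inhibitors, 30 to 215 for the average, 0 to 1 for etomoxir and 0 to 27 for both inhibitors against vehicle. Of the 43 calls at named intervals, edgeR kept 41, a pseudocount of 4 kept 40, no filter 26, limma without an intensity trend 17, and median of ratios and shares of reads times the factor 1 each. By median of ratios, the change over etomoxir was -0.051, -0.11 and -0.13 at AC149090.1, -0.066 at Gm31087 and -0.12 at Gm10801, and the average was -0.21, -0.25 and -0.20 at AC149090.1, -0.32 at Gm31087, -0.30 at Gm10801, -0.050 at Gm11399 and -0.13 at Gm49498. Each of these was called higher in the main fit on spike-in scaled values, by at least 0.73 over etomoxir. The average at Gm31087 was -0.022 to 0.67 without 1 library (the lowest without the set 1 library of etomoxir + SB204990). The cause was not tested.

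The labels do not say what a set number marks. Correlations of the deviations of same-numbered libraries ran from -0.04 to 0.07 in narrow intervals (0 of 15 over 0.1) and from -0.14 to 0.41 in wide intervals (3 of 15 over 0.1). They are taken over intervals and leave out a shift of a whole library. They therefore cannot show whether totals or ratios are paired by set. The tests do not pair the libraries, and values by pair of the same set are descriptions. With the set as a replicate block, the counts were 0, 88, 6, 137, 0 and 0 in the order above. Over all tested intervals they were 2083, 40676, 20667, 51883, 52 and 92. The narrow total gave an exact permutation p of 0.0625, and all 43 named calls were kept. A typical narrow interval held 5 to 7 reads per library.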
